A study of Homo sapiens with 2 samples.

Results

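The plasminogen activator system was examined through 9 genes: the activators PLAU and PLAT, the urokinase receptor gene PLAUR, the plasminogen receptor subunits S100A10 and ANXA2, the inhibitors SERPINB2 and SERPINE2, and F3 and THBD, which start and restrain coagulation next to it. The members were taken as a list of GENCODE release 29 symbols and joined to the Ensembl transcripts of each library; all 9 were found among 49627 genes listed, and all 9 had a mean over both libraries of at least 1 FPKM (a read level corrected for transcript length and for library size), as did 11186 genes in all. The list is not the whole system. Outside it and the lists named further on, only RBMS1, cell markers and genes that overlap a member were looked at singly. RNA-seq was run on 2 libraries of MDA-MB-231, an established line of triple-negative human breast cancer, to ask what depletion of the RNA binding protein RBMS1 changes. One library came from cells with stable RBMS1 knockdown and the other from control cells. Both were grown in L15 medium with serum; by the study's methods the knockdown used lentiviral shRNA in the pLKO.1 plasmid, the control carried empty pLKO.1, and both lines were selected and kept in puromycin. With 1 library per group there is no replicate and no test between the groups, so every comparison describes these 2 libraries, and any difference between cultures cannot be told apart from the knockdown. Which shRNA the library carried, and whether its cells were a single clone or a pool, is not given in the sources used here.

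Plasmin is the broad protease that dissolves fibrin and cuts matrix proteins, and it is made from plasminogen by urokinase (PLAU) or tissue plasminogen activator (PLAT). Urokinase acts at the cell surface when bound to its receptor uPAR, the product of PLAUR, while plasminogen itself docks on surface receptors such as the complex of annexin A2 (ANXA2) with S100A10. Serpins trap the activators in inactive complexes. MDA-MB-231 cells are widely used as a model of invasion that relies on urokinase and its receptor.

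The knockdown was visible in the targeted gene. RBMS1 had a level of 24.1 FPKM in control cells, of which 15.6% (3.76 FPKM) was left after knockdown. Of the markers of this mesenchymal-like line, VIM, CD44, AXL and CAV1 were at 112 to 563 FPKM in both libraries. Of luminal and epithelial genes, ERBB2, GATA3 and EPCAM were at 1.56 to 7.50 FPKM. The markers were not level between the libraries, with CAV1 at 150.3%, CD44 at 75.3% and EPCAM at 52.7% of control and intervals apart, and their part in the results was not tested. ESR1, PGR, CDH1, PTPRC (a leukocyte gene) and PECAM1 (an endothelial gene) were at 0.00168 to 0.115 FPKM, and COL1A1 (a fibroblast gene) was at 0.470 and 0.797 FPKM. Depth in reads was unknown because the files hold no counts, but 1 FPKM stood for a coverage of 12.3 after knockdown and 11.3 in control cells.

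SERPINB2, the gene of plasminogen activator inhibitor type 2, was 15.7-fold lower in RBMS1-depleted cells, or 8.15-fold when an unassigned transcript at its end is counted. PLAUR was at 53.3% of its control level. S100A10 was 1.68-fold higher. PLAU, PLAT, ANXA2 and THBD lay between 91.8% and 112% of their control levels. SERPINE2 was at 70.1% of the control level and F3 at 78.2%. In bulk RNA, fewer cells expressing a gene and less RNA per cell cannot be told apart. Differences are given as a log2 ratio, knockdown over control, with 1 FPKM added to both values, a scale on which genes of low level appear to change less than they did. Where a pair of levels is given, the knockdown library comes first. A 2-fold lower level, a log2 ratio of -1 or less, was found for 1 of the 9 members, SERPINB2, against 2.8% of all 11186 genes, and a 2-fold higher level for 0 members against 2.96% of all genes. SERPINB2 reached the mean of 1 FPKM through the control library alone. Nothing about the members is therefore read from this count or from the lower count at 1.5-fold. At 1.5-fold, 2 members were lower (SERPINB2 and PLAUR; 5.99% of all genes) and 1 was higher (S100A10; 6.78% of all genes). The median log2 ratio of the members was -0.12, beside 0.02 over all genes, with 7 of the 9 below 0 where 47.2% of all genes were. That count was 6 with upper quartile scaling, where ANXA2 turned to 0.02, and 5 with dominant transcripts only, where ANXA2 and PLAT turned to 0.02 and 0.08.

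**Figure D1:**
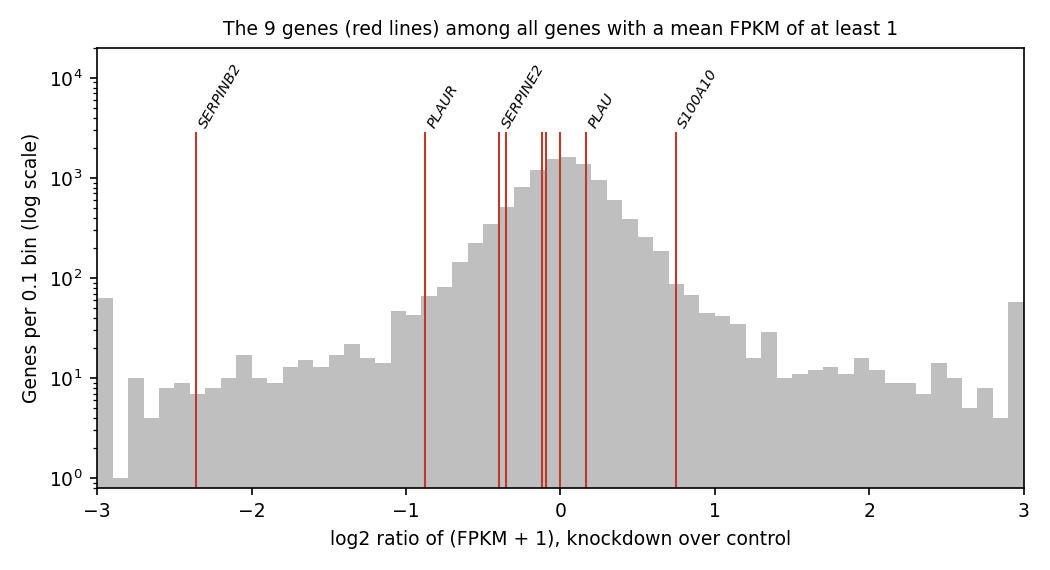
The grey bars count the 11186 genes with a mean of at least 1 FPKM by log2 ratio of (FPKM + 1), knockdown over control, on a log scale, with ratios beyond 3 in either direction placed in the outermost bars. The red lines mark the 9 members, from SERPINB2 at -2.36 to S100A10 at 0.74, with the others near the centre and PLAUR at -0.88.

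Cufflinks, the program that estimated the values, gives each transcript an interval for the uncertainty within a library. Summed over a gene, these intervals do not cover differences between cultures. They did not overlap between the libraries for 3 members that were lower (SERPINB2, PLAUR and F3; 11.5% of all genes) and for 1 that was higher (S100A10; 13.3% of all genes). For the other 5 members they overlapped. SERPINB2 enters the lower count through its control level alone, so nothing about the members is read from that count.

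The members spanned a wide range of levels, and FPKM allows levels to be set side by side because it is per length. ANXA2 and S100A10 were the most abundant in both libraries, followed by F3, PLAU, PLAT and PLAUR in that order. SERPINB2, THBD and SERPINE2 came last. In control cells SERPINB2 (6.14 FPKM) and THBD (5.92 FPKM) were neighbours whose intervals overlapped. In RBMS1-depleted cells SERPINB2 (0.392 FPKM) stood below both THBD (5.47 FPKM) and SERPINE2 (2.96 FPKM). All other neighbours in the order were apart by their intervals.

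**Figure D2:**
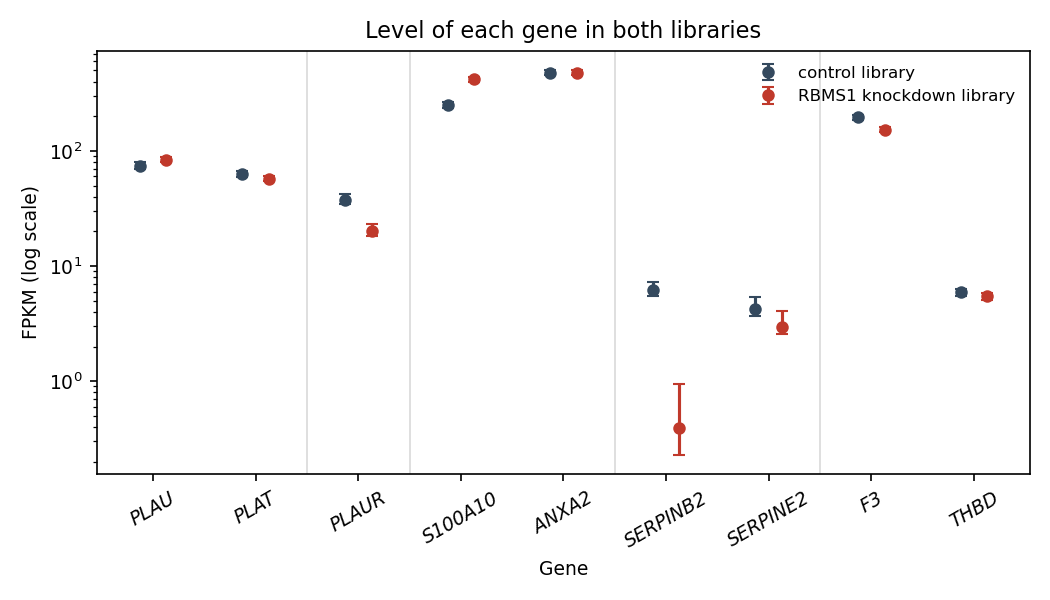
Each point is the FPKM of a gene (log scale) in the control library (dark) or the RBMS1 knockdown library (red), and the bars are the summed within-library intervals of Cufflinks. Only SERPINB2, PLAUR, F3 and S100A10 have bars that do not overlap, and SERPINB2 is the member with the widest gap, 6.14 FPKM in control cells and 0.392 FPKM after knockdown.

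PLAU encodes urokinase and is found on the plus strand of chromosome 10 (GRCh38, 73909177 to 73917497). Its level was 83.6 FPKM in RBMS1-depleted cells (interval 79.6 to 88.1) and 74.5 FPKM in control cells (69.9 to 79.7). The gene totals were close, with a log2 ratio of 0.16, but their makeup was not the same. Its main transcript, ENST00000372764 with 11 exons and 431 codons, was at 83.6 and 60.1 FPKM, and these intervals did not overlap. In control cells a further 14.4 FPKM came from a transcript assembled from the reads, which shared 9 introns with the gene. It stopped at 73916554, before the stop codon of the main transcript, and so held none of the 932 nt of the 3′-UTR. Whether it is a complete RNA or an assembly cut short was not tested. Leaving the assembled transcript out gave a log2 ratio of 0.47. The overlapping antisense gene C10orf55 was listed at 0 in both libraries.

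PLAT encodes tissue plasminogen activator, which acts mostly in fibrin clots, and is found on the minus strand of chromosome 8 (42175233 to 42207724). It was at 57.3 FPKM in RBMS1-depleted cells (interval 54.6 to 60.9) and 62.4 FPKM in control cells (58.9 to 66.9), a log2 ratio of -0.12. The full-length transcript ENST00000220809, with 562 codons, was at 57.3 and 54.1 FPKM. The shorter ENST00000352041, which lacks a coding stretch of 138 nt and keeps the frame with 516 codons, reached 8.32 FPKM in control cells and was listed at 0 after knockdown. With the full-length transcript alone, the log2 ratio of PLAT was 0.08. The level of PLAU relative to PLAT was 1.46 in RBMS1-depleted cells and 1.19 in control cells, with overlapping ranges (1.307 to 1.616 and 1.045 to 1.355).

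PLAUR encodes uPAR, a receptor held in the membrane by a glycolipid anchor, and is found on the minus strand of chromosome 19 (43646095 to 43670547). It was at 20.03 FPKM in RBMS1-depleted cells (interval 18.1 to 23.4) and 37.6 FPKM in control cells (34.6 to 42.1). The log2 ratio was -0.88, and the bounds of the intervals nearest to each other still left it 1.48-fold lower. By log2 ratio PLAUR had rank 366 from the lowest of the 11186 genes. Of 16 reference transcripts listed, 2 carried this expression. ENST00000340093, with 335 codons, was at 16.0 and 29.5 FPKM, which is 54.2% of the control level. ENST00000339082, with 281 codons, was at 4.03 and 8.08 FPKM, which is 49.9% of the control level. Both transcripts were lower, and the shorter one made up 20.1% of the gene in RBMS1-depleted cells and 21.5% in control cells.

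The 2 PLAUR transcripts share 754 coding nt and part at their last coding exon, which holds 251 coding nt in ENST00000340093 and another 89 in ENST00000339082. The signal for the glycolipid anchor sits at the carboxy-terminal end of uPAR, so the last 30 coding bases of each are shown, with the stop codon in capitals (GENCODE release 29, GRCh38, minus strand, chr19:43648890-43648919 and chr19:43646457-43646486).
PLAUR ENST00000340093: ctgtggggaggcactctcctctggaccTAA
PLAUR ENST00000339082: tgtgaggaagcccaagctactcatgtaTAA

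PLAU was not lower with its receptor. The level of PLAU relative to PLAUR was 4.17 in RBMS1-depleted cells and 1.98 in control cells. Taken at the bounds of the intervals, these ratios ran from 3.40 to 4.88 and from 1.66 to 2.31, and did not overlap.

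SERPINB2 encodes plasminogen activator inhibitor type 2, a serpin found mostly inside the cell that inhibits urokinase and is strongly induced by inflammatory signals in monocytes and other cells. The gene is found on the plus strand of chromosome 18 (63871692 to 63903890), within a cluster of clade B serpins. It was at 0.392 FPKM in RBMS1-depleted cells (interval 0.228 to 0.943) and 6.14 FPKM in control cells (5.48 to 7.22), so that 6.39% of the control level was left. All of it came from ENST00000299502, with 8 exons and 415 codons, at a coverage of 5.06 in RBMS1-depleted cells and 71.2 in control cells. The log2 ratio was -2.36, which is rank 99 from the lowest of the 11186 genes, and the nearest bounds of the intervals were 5.81-fold apart. SERPINB2 is among these genes through its control level alone, so the rank is only a description. In RBMS1-depleted cells a further assembled transcript of 1023 nt with no intron covered the end of the gene from 63902868 to 63903890 at 0.361 FPKM. Counting it as SERPINB2 gave a log2 ratio of -2.03. The pseudocount weighed on this low gene, with -3.66 for 0.1 FPKM and -1.05 for 5 FPKM added. SERPINB10, which overlaps it on the same strand, was listed at 0 in both libraries.

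SERPINE2 encodes protease nexin 1, a secreted serpin that inhibits thrombin, urokinase and plasmin. It is found on the minus strand of chromosome 2 (223975112 to 224039319). The gene was at 2.96 FPKM in RBMS1-depleted cells (interval 2.56 to 4.05) and 4.22 FPKM in control cells (3.72 to 5.40), a log2 ratio of -0.40. The summed intervals overlapped, though those of ENST00000409304, which held all of the expression, did not (2.56 to 3.36 and 3.72 to 4.72 FPKM). Set against urokinase, only SERPINB2 of these 2 inhibitors was apart by the summed intervals. For SERPINE2 those sums include the upper bounds of transcripts listed at 0, and no range was taken from ENST00000409304 alone. SERPINE2 relative to PLAU was 0.0354 in RBMS1-depleted cells and 0.0567 in control cells, with overlapping ranges of 0.0291 to 0.0508 and 0.0466 to 0.0773. SERPINB2 relative to PLAU was 0.0047 and 0.0825, with ranges of 0.00259 to 0.0118 and 0.0687 to 0.103.

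S100A10 encodes a small protein whose carboxy-terminal lysine binds plasminogen. It pairs with ANXA2, a membrane-binding protein that protects it from degradation. S100A10 is found on the minus strand of chromosome 1 (151982915 to 151994390). It was at 417 FPKM in RBMS1-depleted cells (interval 396 to 439.8) and 249 FPKM in control cells (234 to 264), a log2 ratio of 0.74 with rank 491 from the highest of the 11186 genes. At the nearest bounds of the intervals it was 0.58. Its 2 expressed transcripts encode the same 97 codons, and both were higher. ENST00000368809 was at 327 and 197 FPKM, and ENST00000368811, which has a longer UTR, was at 90.1 and 52.0 FPKM. Over the alternatives tried, the log2 ratio of S100A10 ran from 0.72 to 0.76.

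ANXA2 did not share that difference. The gene, on the minus strand of chromosome 15 (60347134 to 60402883), was at 477 FPKM in RBMS1-depleted cells (interval 455 to 504) and 478 FPKM in control cells (455 to 504), a log2 ratio of -0.0012. Its 2 main transcripts encode the same 339 codons, with ENST00000451270 at 343 and 339 FPKM and ENST00000421017 at 134 and 138 FPKM. The level of S100A10 relative to ANXA2 was 0.875 in RBMS1-depleted cells and 0.521 in control cells, and the ranges from the intervals (0.786 to 0.966 and 0.464 to 0.580) did not overlap. ANXA2 has near-identical pseudogene copies that could take some of its reads. In control cells ANXA2P1 was at 0.219 FPKM and ANXA2P2 at 0.0962 FPKM, both were listed at 0 after knockdown, and ANXA2P3 was at 0 in both libraries.

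F3 encodes tissue factor, the membrane protein that starts coagulation by binding factor VII, and is found on the minus strand of chromosome 1 (94529225 to 94541800). It was at 153 FPKM in RBMS1-depleted cells (interval 146 to 159.9) and 195 FPKM in control cells (187 to 204), a log2 ratio of -0.35. The intervals did not overlap, but their nearest bounds were only 1.17-fold apart. THBD encodes thrombomodulin, which turns thrombin from a clotting enzyme into an activator of protein C. This gene of 1 exon is found on the minus strand of chromosome 20 (23045633 to 23049741), and was at 5.47 FPKM (interval 5.11 to 5.83) and 5.92 FPKM (5.52 to 6.31), a log2 ratio of -0.10. Having no intron, it could gain no assembled transcript by the rule on shared introns. The level of F3 relative to THBD was 27.9 in RBMS1-depleted cells and 33.0 in control cells, with overlapping ranges (25.02 to 31.3 and 29.6 to 37.0).

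**Figure D3:**
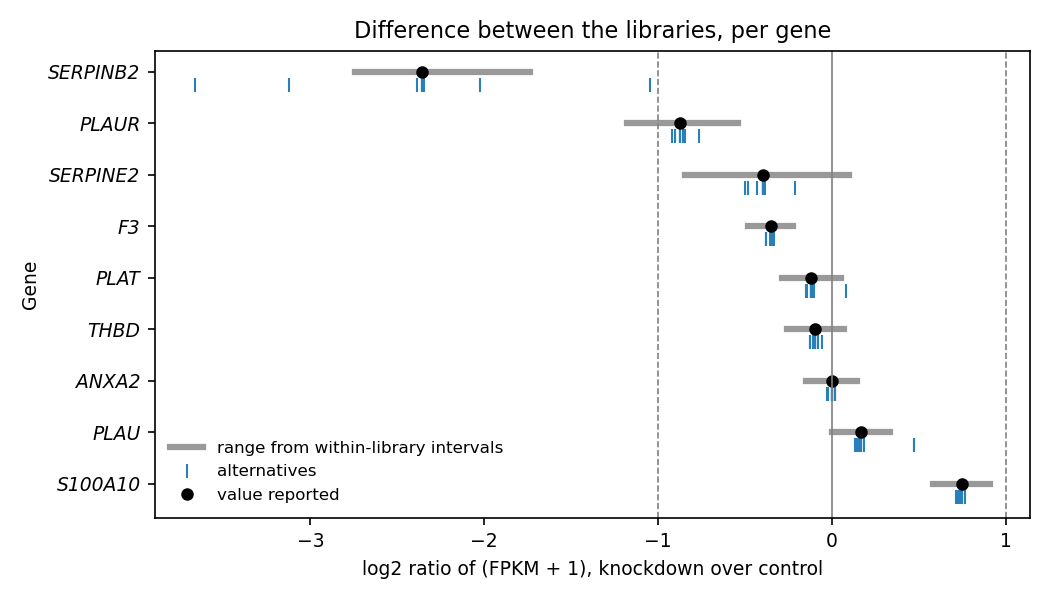
Black points give the log2 ratio of (FPKM + 1), knockdown over control, of each member, grey bars the range set by the within-library intervals, blue ticks the values under the alternatives, and dashed lines a 2-fold difference. SERPINB2 is the only member past a 2-fold difference, from -3.66 to -1.05 over the alternatives, and the tick of PLAU at 0.47 marks reference transcripts only and the dominant transcript only.

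RNA binding proteins such as RBMS1 can act on the 3′-UTR of an RNA, and several RNAs of this system are known for AU-rich elements there, so the 3′-UTR of the main coding transcript of each member was searched on its sense strand for 2 motifs. ATTTA is the core of AU-rich elements, and ATATA is bound in vitro by proteins of the RBMS family. Matches may overlap within and between motifs. Of 9482 genes with a mean of at least 1 FPKM and a 3′-UTR of at least 50 nt, 70.1% held ATTTA and 57.8% ATATA. The counts were read against genes whose 3′-UTR was at most 25% longer, or shorter by the same factor. SERPINB2 held 4 ATTTA and 5 ATATA in 585 nt. Of 1183 genes of like length, 8.54% held at least 4 ATTTA and 3.55% at least 5 ATATA. Its 3′-UTR was 71.6% A and T, beside 52.0% to 65.8% in the other members. Genes of like length were not matched for this share, which bears on motifs made of A and T alone. PLAUR held 1 ATTTA and no ATATA in 310 nt, where 43.2% of 854 genes of like length had an ATTTA. S100A10 (245 nt) and ANXA2 (303 nt) held no match to either motif, where 39.2% and 43.0% of genes of like length held an ATTTA. F3 held 6 of each in 1235 nt. Of 1388 genes of like length, 14.4% held at least as many ATTTA and 11.02% at least as many ATATA. THBD held 9 ATTTA and 2 ATATA in 2144 nt, and 17.3% and 67.3% of genes of like length held at least as many. PLAU held 2 of each in 932 nt, with shares of 49.1% and 35.9%. PLAT and SERPINE2 each held 2 ATTTA and 1 ATATA, in 760 and 755 nt, with shares of 40.6% and 48.7% for PLAT and 40.4% and 49.1% for SERPINE2. A match is a description of letters and not a binding site.

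The windows of 30 bases below show the letters for members whose intervals were apart and that held a match, SERPINB2, PLAUR and F3, and for THBD and PLAU as members whose gene totals had overlapping intervals. They come from GENCODE release 29 transcripts (GRCh38), with the motif in capitals. SERPINB2 is shown for ATTTA at chr18:63903571-63903600 and for ATATA at chr18:63903810-63903839, both on the plus strand. ATATA is printed for SERPINB2 only but is not particular to it. F3 held 6, PLAU and THBD 2 each, and PLAT and SERPINE2 1 each. PLAUR is at chr19:43648601-43648630, F3 at chr1:94529273-94529302 and THBD at chr20:23046063-23046092, on the minus strand, and PLAU at chr10:73917417-73917446 on the plus strand.
SERPINB2 ATTTA: cttttactttgttATTTAttattttatata
SERPINB2 ATATA: aatacataacacATATATAtgtctgtatct
PLAUR ATTTA: taatattcatattATTTAttttatacttac
F3 ATTTA: tctatcttccATTTAttATTTAtgtacaat
THBD ATTTA: tgtacatagttATTTATTTAttggagataa
PLAU ATTTA: aatATTTAtatttcactatttttATTTAta
The PLAU window lies in the 3′-UTR, which the assembled transcript of control cells, ending before the stop codon, did not reach. The longer TATTTAT, which holds an ATTTA, was found 1 time in SERPINB2 and PLAUR, 2 times in PLAU, PLAT and F3 and 5 times in THBD, and not in SERPINE2, S100A10 or ANXA2. Of genes of like length, at least as many were held by 19.4% for SERPINB2, 12.2% for PLAUR, 5.33% for PLAU, 4.79% for PLAT, 8.65% for F3 and 0.984% for THBD.

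A list of further genes of plasminogen activation was examined in the same way. Plasminogen itself (PLG) had only 0.209 and 0.226 FPKM, in knockdown and control cells. The mean of 1 FPKM was reached by 7 of the 20 genes of this list. Of these 7, 6 had a log2 ratio below 0 and 1 above, where 47.2% of all genes were below 0. Intervals overlapped for 5 of the 7. They did not for TFPI2, which was lower, and for ENO1, which was higher (11.5% and 13.3% of all genes). At 2-fold, 1 gene was lower and 0 were higher (2.8% and 2.96% of all genes), and the median log2 ratio was -0.12. The largest decrease was TFPI2, the gene of an inhibitor of plasmin and of tissue factor with factor VII, at 12.2 FPKM in RBMS1-depleted cells (interval 10.7 to 13.9) and 30.6 FPKM in control cells (27.9 to 33.6), a log2 ratio of -1.26, which was -4.37 for its dominant transcript alone. The largest increase was ENO1, a glycolytic enzyme that also binds plasminogen at the cell surface, at 779 and 688 FPKM with a log2 ratio of 0.18. The plasminogen receptor PLGRKT was at 7.14 and 7.78 FPKM.

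Genes of coagulation start and of the protein C pathway, which holds TFPI2 as well, had 8 of 20 members with a mean of at least 1 FPKM. Their median log2 ratio was -0.23, and intervals did not overlap for 4 lower and 2 higher members (11.5% and 13.3% of all genes). The largest decrease was again TFPI2. The largest increase was PROS1, the gene of the protein C cofactor protein S, at 2.76 and 1.49 FPKM with a log2 ratio of 0.60 (0.26 to 0.85 over the alternatives). A list of cell surface and matrix partners of the urokinase receptor, which holds integrins, syndecans, fibronectin and the genes EGFR, IGF2R and CAV1, had 11 of 12 members above that mean, a median log2 ratio of -0.33 and intervals that did not overlap for 7 lower and 2 higher members, where 11.5% and 13.3% of all genes were so. The 7 lower genes were ITGA5, ITGAV, ITGB5, EGFR, IGF2R, SDC1 and SDC4, and the 2 higher were FN1 and CAV1. The nearest bounds were only 1.05-fold apart for ITGB5 and 1.06-fold for ITGA5 and IGF2R. At 1.5-fold, 2 genes of this list were lower and 1 was higher (5.99% and 6.78% of all genes). The shares over all genes were not matched for level. The largest decrease was SDC4, a heparan sulfate proteoglycan of cell adhesion, at 22.0 FPKM in RBMS1-depleted cells (interval 21.1 to 22.9) and 102 FPKM in control cells (99.9 to 104), a log2 ratio of -2.16. The largest increase was FN1, the gene of fibronectin, at 31.3 and 19.7 FPKM with a log2 ratio of 0.64.

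The families that SERPINB2, ANXA2 and PLAUR belong to were also counted. Of 12 other clade B serpins 4 passed the mean of 1 FPKM, with a median log2 ratio of -0.05. SERPINB9, an inhibitor of granzyme B, was the lowest at -0.84, or -1.35 with reference transcripts only. SERPINB1, an inhibitor of neutrophil proteases, was the highest at 0.67, which turned to -1.31 with reference transcripts only. Of 16 other annexins and ANXA2 copies 8 passed, with a median of 0.06, from ANXA8 at -0.32 to ANXA3 at 0.52. ANXA3 became -0.01 with reference transcripts only, and ANXA8 ran from -0.48 to 0.04 over the alternatives. ANXA8 has a near-identical copy, ANXA8L1, listed at 0 after knockdown and at 1.29 FPKM in control cells, so reads may be split between them and the ANXA8 value is uncertain. Of 12 other Ly6/uPAR domain proteins 4 passed, with a median of 0.04, from LYPD6 at -0.48 to LY6E at 0.38. With all assigned transcripts counted, none of these 3 lists held a gene at least 2-fold lower or higher (2.8% and 2.96% of all genes, too few to read anything from a count of 0 in lists this short), whereas with reference transcripts only SERPINB9 and SERPINB1 were both past 2-fold lower.

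**Figure D4:**
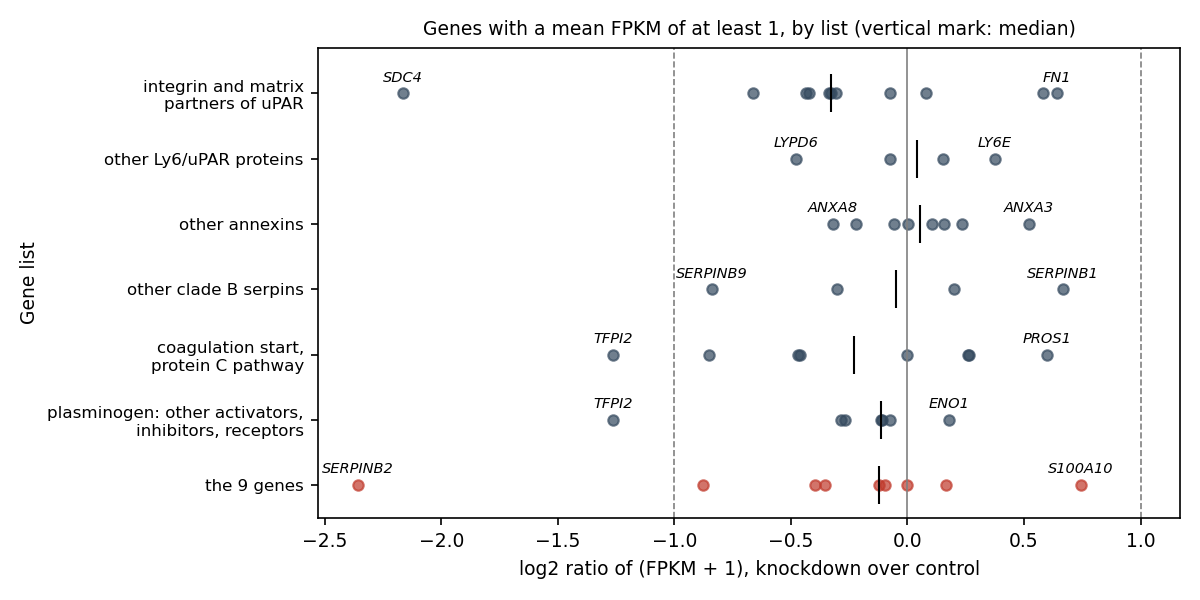
Each point is a gene with a mean of at least 1 FPKM, placed by its log2 ratio of (FPKM + 1), knockdown over control, in the row of its list, with a vertical mark at the median of the list and dashed lines at a 2-fold difference. SERPINB2 at -2.36, SDC4 at -2.16 and TFPI2 at -1.26, the last in 2 rows, are the only genes beyond a dashed line.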

How the data were processed

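Transcript FPKM of 1 RBMS1 knockdown and 1 control library of MDA-MB-231 cells were deposited by the authors as Cufflinks files, with an interval and the coverage of each transcript. The submitters' processing notes name Bowtie2 2.0.6, TopHat2 2.0.9, Cufflinks 2.1.1 and Cuffdiff 2.1.1. The build, annotation, strand and treatment of reads with several matches are not given in the sources used here. Of 184053 and 184062 reference transcripts also in GENCODE release 29, 97.3% had both its start and its end on GRCh38, in each library. A table of the authors' own comparison was also deposited, with FPKM on another scale, fold changes, p-values and q-values. Its fold changes, p-values and q-values were not used.

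Gene levels were made by adding the FPKM of the reference transcripts and of assembled transcripts sharing at least 1 intron with them on the same strand (Python 3.11.15, pandas 2.3.3), and the sums and calls were tested on simulated data. Genes listed at exactly 0 may be failed estimates, so no fold is given for them. The members and lists were chosen with earlier results of these data known. Named are the members, RBMS1, near-identical copies, and the largest decrease and increase of each of 6 lists with a mean of at least 1 FPKM. PLG, PLGRKT, overlapping genes and cell markers were added as context. Of the urokinase receptor partners, the genes with intervals apart were also named. Alternatives varied the pseudocount, scaling, transcripts counted and filter.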

Additional observations from a re-analysis of the deposited data

How the results depend on the processing

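No paired analysis was possible because each group holds 1 library, and leaving out a replicate was likewise not possible. With a mean of at least 5 FPKM, SERPINB2 and SERPINE2 left the list, so that 0 members were at least 2-fold lower and 1 at least 1.5-fold lower. RBMS1 had a log2 ratio of -1.73 with 5 FPKM added. Every other alternative kept the member counts at 2-fold and 1.5-fold, and the median of the members ran from -0.15 to -0.10. Of single members, SERPINB2 ran from -3.66 to -1.05 (-3.12 as TPM) and PLAUR from -0.92 to -0.77. PLAU became 0.47 with reference transcripts or its dominant transcript only, and PLAT turned to 0.08 with its dominant transcript only. The alternative that counts assembled transcripts overlapping an exon was chosen after seeing the data. With no counts, precision in reads is unknown, and SERPINB2 in RBMS1-depleted cells is the least certain level.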

Other observations

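The table of the authors' own comparison holds 7236 transcripts, of which 12 belong to the members. Its FPKM are on a scale of their own, and the transcripts in it were selected by that comparison, so they are no independent evidence. Both PLAUR transcripts are in it, ENST00000340093 at 52.5 FPKM in the control and 27.9 FPKM after knockdown, and ENST00000339082 at 13.1 and 6.22 FPKM. SERPINB2 ENST00000299502 is at 11.4 and 1.001 FPKM, and S100A10 ENST00000368809 at 375 and 615 FPKM with ENST00000368811 at 95.7 and 164 FPKM, in the same order. The table also lists minor transcripts that the library files list at 0 in both libraries. Among these, PLAU ENST00000481390 is at 15.4 FPKM after knockdown and 3.83 FPKM in the control, and ANXA2 ENST00000559176 is at 24.2 FPKM in the control and listed at 0 after knockdown, while ANXA2 ENST00000560466 goes the other way, at 5.71 FPKM in the control and 16.9 FPKM after knockdown. No transcript of PLAT, F3 or THBD is in the table.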
